A study of Mus musculus with 4 samples.

Results

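Cholesterol synthesis, uptake and sterol regulation were examined through 32 genes, named as enzymes of the pathway, sterol regulators and sterol carriers, in cytoplasmic RNA of Neuro2A cells. The genes were taken by symbol: a probe set counted where the array annotation gave it 1 gene symbol and that symbol was on the list. Of the 32 genes, 31 had such a probe set, out of 18193 genes on the array, and together they had 69 probe sets. The RNA level of Acat2, an acetoacetyl-CoA thiolase, was not analysed here.

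Neuro2A is a mouse neuroblastoma cell line. The comparison was between cells depleted of 4.5SH, a short rodent RNA that codes for no protein and resembles B1 repeats, and control cells, with 2 arrays in each group. All dishes were transfected with 30 nM of antisense oligonucleotides using lipofectamine, and 200 ng of poly(A)+ RNA from the cytoplasmic fraction went into each labelling reaction. The replicates are called biological in the labels, with no statement of separate cultures or days, so the p-values reflect only how far these samples spread, which may be technical. The labels used here do not name the oligonucleotide of the control cells, and 4.5SH itself was not measured here, so loss of 4.5SH and other effects of the oligonucleotide cannot be told apart. The study set out to find genes carrying B1 sequence in antisense on which 4.5SH acts; the sterol genes are a set of their own and were compared by step of the pathway.

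Cells make cholesterol from acetyl-CoA through mevalonate, isoprenoid diphosphates, squalene and lanosterol, and take it up in lipoproteins whose cholesterol leaves the lysosome through NPC1 and NPC2. When sterols in the endoplasmic reticulum run low, SCAP carries SREBP-2 to the Golgi apparatus, where the proteases encoded by Mbtps1 and Mbtps2 release its active part, which switches on the synthesis genes. INSIG proteins hold SCAP back when sterols are plentiful, and excess sterol activates liver X receptors, which switch on exporters such as ABCA1. SREBPs bind sterol regulatory elements, usually beside CCAAT boxes bound by NF-Y or GC boxes bound by Sp1.

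Promoters of 4 enzymes that were higher in the knockdown, and of the regulator Insig1, are shown so that these elements can be seen in place. They are RefSeq windows on GRCm38.p6 of 300 bases, 250 before and 50 after the annotated start, read 5′ to 3′ on the gene's strand. Capitals mark CACNCCAC (a form of the sterol regulatory element), CCAAT or GGGCGG, each on either strand, and no base of the member windows lay in more than 1 motif. The windows are Hmgcs1 at chr13:119690101-119690400 on the plus strand, Idi1 at chr13:8885356-8885655 on the plus strand, Cyp51 at chr5:4104648-4104947 on the minus strand, Msmo1 at chr8:64733529-64733828 on the minus strand and Insig1 at chr5:28071162-28071461 on the plus strand.
Hmgcs1: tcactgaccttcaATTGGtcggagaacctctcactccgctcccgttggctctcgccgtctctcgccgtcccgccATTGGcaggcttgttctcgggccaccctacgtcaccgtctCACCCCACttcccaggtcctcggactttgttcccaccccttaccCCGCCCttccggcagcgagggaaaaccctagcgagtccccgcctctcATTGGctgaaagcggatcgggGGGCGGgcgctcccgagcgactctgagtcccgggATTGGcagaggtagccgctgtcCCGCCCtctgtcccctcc
Idi1: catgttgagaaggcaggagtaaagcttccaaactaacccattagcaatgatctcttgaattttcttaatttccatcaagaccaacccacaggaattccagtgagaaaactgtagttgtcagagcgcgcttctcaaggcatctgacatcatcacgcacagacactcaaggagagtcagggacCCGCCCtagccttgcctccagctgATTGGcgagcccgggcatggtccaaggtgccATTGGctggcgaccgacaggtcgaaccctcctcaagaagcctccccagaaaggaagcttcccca
Cyp51: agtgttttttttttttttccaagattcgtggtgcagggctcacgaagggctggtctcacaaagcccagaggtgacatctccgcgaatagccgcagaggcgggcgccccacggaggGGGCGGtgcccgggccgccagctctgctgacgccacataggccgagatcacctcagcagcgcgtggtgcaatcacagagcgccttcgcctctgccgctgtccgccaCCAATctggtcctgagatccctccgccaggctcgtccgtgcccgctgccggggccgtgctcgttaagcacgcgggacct
Msmo1: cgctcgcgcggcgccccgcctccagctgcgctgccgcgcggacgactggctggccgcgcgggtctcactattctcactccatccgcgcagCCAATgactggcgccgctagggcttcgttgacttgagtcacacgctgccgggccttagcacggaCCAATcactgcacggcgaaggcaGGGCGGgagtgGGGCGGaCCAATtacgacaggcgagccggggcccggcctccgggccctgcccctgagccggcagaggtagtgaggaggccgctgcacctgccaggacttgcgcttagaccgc
Insig1: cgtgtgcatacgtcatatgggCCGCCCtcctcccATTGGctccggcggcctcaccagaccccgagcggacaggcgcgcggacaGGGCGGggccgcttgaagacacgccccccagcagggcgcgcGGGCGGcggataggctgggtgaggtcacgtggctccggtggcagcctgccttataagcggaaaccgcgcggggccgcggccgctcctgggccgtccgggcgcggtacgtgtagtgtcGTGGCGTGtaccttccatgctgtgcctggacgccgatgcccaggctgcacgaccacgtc
The match to CACNCCAC in Hmgcs1 began 136 bases before the start, with 4 CCAAT and 3 GGGCGG matches in the same window. Insig1 had 1 match, read on the other strand, that began 9 bases before the start. The windows of Idi1, Cyp51 and Msmo1 held no match to CACNCCAC, and had CCAAT matches from 160 to 14 bases before the start. Other forms of the sterol regulatory element were not searched for, so a window without a match may still hold one. RefSeq windows were matched for 26 members (34 windows), and none for Stard4, Fdps, Fdft1, Sqle, Npc1 or Abcg1. Of the 34 windows, 3 held CACNCCAC (8.82%, in Acat2, Hmgcs1 and Insig1), against 6.24% of 32851 windows of all genes. The latter came from 27025 genes and were not limited to the genes tested on the array. CCAAT was in 22 member windows (64.7%, against 37.4% of all windows) and GGGCGG in 27 (79.4%, against 35.7%). These are counts of letters only; of 6 members that were higher and had a window, 4 held CCAAT, of 4 that were lower, 3 did, and of 15 that did not pass, 14 did.

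The signal is the MAS5 value of a probe set on a linear scale, and differences are given on the scale of log2(signal + 16), as knockdown minus control with the standard error of the limma fit. Probe sets at or above the median mean level of the array were tested, and each gene was read from its brightest tested probe set. This left 30 members among 11804 genes. Abcg1, a cholesterol exporter, did not reach that level: its probe sets read 16.5 and 3.6 in the knockdown against 16.7 and 3.6 in the control, and 1.2 and 2.2 against 10.8 and 0.8. A gene passed when its Benjamini-Hochberg adjusted p over all 11804 genes was below 0.05. An exact permutation test on 2 against 2 arrays cannot go below 0.333, so every call depends on limma's pooling of variance over genes.

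Sterol genes moved both ways. Hmgcs1, Idi1, Fdps, Cyp51, Msmo1, Mbtps2, Stard4 and Abca1 rose in the knockdown, and Fdft1, Lss, Srebf2, Mbtps1 and Npc2 fell. The 8 that rose were 26.7% of the 30 tested members, against 9.79% of all genes tested, and the 5 that fell were 16.7%, against 35.2% of all genes. The number that fell was 3 without knockdown replicate 1 or without control replicate 1. The median log2 difference of the members was 0.00 (0.17 with quantile scaling, 0.13 centred on tested probe sets and -0.12 with spike-in centring), that of all genes was -0.16, and 21 of the 30 members lay above the latter. Both knockdown arrays lay above both control arrays for 14 members, against 19.7% of all genes, and below them for 9, against 51.6%. Changes were modest: Stard4, Abca1 and Hmgcs1 passed a ratio of 1.5 between the mean signals, Stard4 also passed a ratio of 2, and no member fell by a factor of 1.5.

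**Figure D1:**
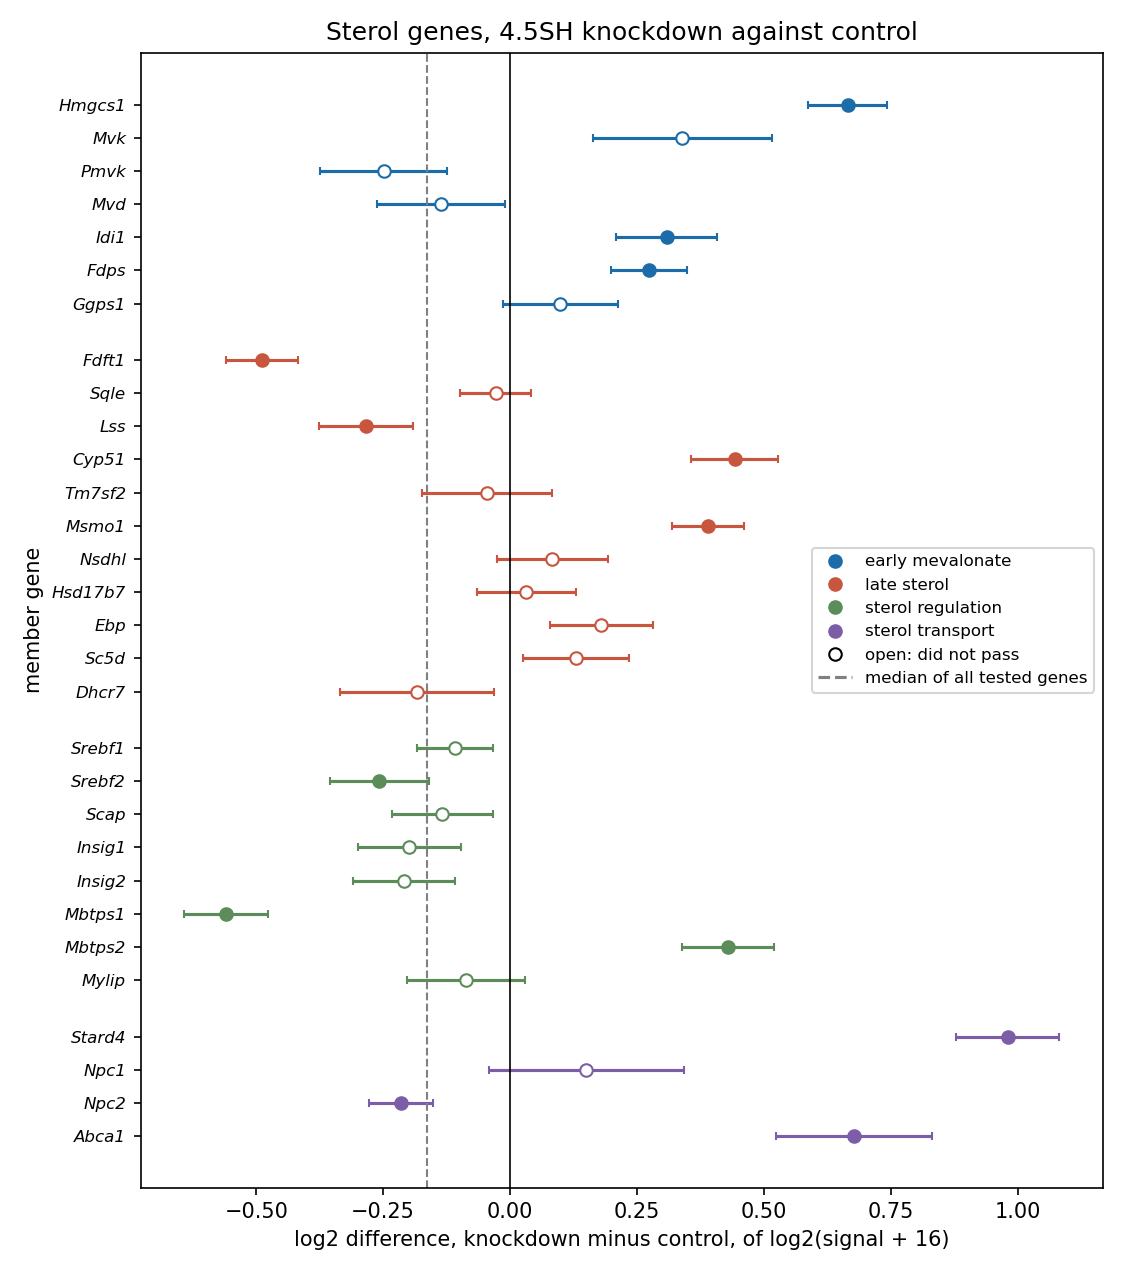
Log2 difference of each of the 30 tested members (x axis, knockdown minus control, log2(signal + 16)) by gene (y axis) and step, with bars of 1 standard error of the limma fit on 2 against 2 arrays; filled points passed and open points did not. The early mevalonate genes that passed all lie to the right of 0, while late sterol, regulation and transport genes that passed lie on both sides; the dashed line is the median of all genes tested, -0.16.

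By step, the early mevalonate genes had 3 of 7 tested members higher (42.9%, against 9.79% of all genes). None was lower (against 35.2% of all genes), and the median was 0.27. The late sterol genes had 2 of 11 higher and 2 lower (18.2% each, against 9.79% and 35.2% of all genes). Their median was 0.03, and 8 of the 11 lay above the median of all genes, -0.16. The regulators had 1 of 8 higher (12.5%, near the 9.79% of all genes) and 2 lower (25%, against 35.2%), with a median of -0.17. Their lower count was 4 with spike-in centring. It was 1 with quantile scaling or either centring on probe sets, and 0 with the mean of probe sets. The carriers had 2 of 4 higher (50%, against 9.79%) and 1 lower (25%, against 35.2%), with a median of 0.41. Of the 18 synthesis enzymes tested in both steps, 5 rose (27.8%, against 9.79%) and 2 fell (11.1%, against 35.2%). The other 11 did not pass, and the median was 0.09. The steps were not tested against each other.

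Hmgcs1, Idi1 and Fdps were the early mevalonate enzymes that rose, and no enzyme of this step fell as deposited; with spike-in centring the count was 1 higher (Hmgcs1) and 1 lower (Pmvk). Hmgcs1, the HMG-CoA synthase that makes the substrate for mevalonate, read 857.9 and 949.6 in the knockdown against 577.1 and 549.8 in the control. Both knockdown arrays lay well above both control arrays, and the log2 difference was 0.67 ± 0.08 (limma adjusted p = 3.10e-06). It was also higher at all 4 of its tested probe sets, by 0.57 to 0.67. Fdps, the synthase of farnesyl diphosphate, read 762.6 and 816.5 in the knockdown against 646.8 and 653.5 in the control. The groups did not overlap, and the difference was 0.27 ± 0.08 (limma adjusted p = 0.00676), which did not pass without knockdown replicate 2 (0.23, limma adjusted p = 0.0771). Idi1, the isomerase of isopentenyl diphosphate, read 495.1 and 515.4 against 362.7 and 451.5. Its control arrays differed from each other more than its knockdown arrays did, and the difference was 0.31 ± 0.10 (limma adjusted p = 0.0174). This call was lost without knockdown replicate 1, knockdown replicate 2 or control replicate 1 (0.34, 0.28 and 0.16). The other probe set for Idi1 read 373.2 and 418.8 against 204.8 and 238.1, a larger difference of 0.80 that also passed. Without knockdown replicate 2, Hmgcs1 was the 1 early enzyme still called.

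The other early enzymes did not pass. Mvk, mevalonate kinase, read 58.2 and 77 in the knockdown against 47.3 and 52.1 in the control (0.34 ± 0.18, limma adjusted p = 0.130). Its dimmer probe set read 58 and 59.3 against 36.4 and 31.2, and passed in the fit of all probe sets (0.59 ± 0.18, limma adjusted p = 0.0206). Pmvk, the kinase of the next step, had a difference of -0.25 ± 0.13, with both knockdown arrays below both control arrays. Mvd, the decarboxylase that follows, had -0.14 ± 0.13 with overlapping groups. Ggps1, which makes geranylgeranyl diphosphate, had 0.10 ± 0.11, with all 4 of its probe sets above 0 and none past the threshold.

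In the late sterol step, Cyp51 and Msmo1, which act on lanosterol and its products, rose. Of the enzymes that lead to lanosterol, Fdft1 fell, Lss fell at 1 of its 3 tested probe sets and Sqle did not pass. Cyp51, the lanosterol demethylase, read 483.6 and 486 in the knockdown against 352.4 and 352.7 in the control. The arrays within each group were nearly equal, and the difference was 0.44 ± 0.09 (limma adjusted p = 0.000471). Its other probe sets pointed the same way, at 0.23 and 0.33, without passing. Msmo1, the methylsterol oxidase that works after Cyp51, read 963.9 and 1025.7 against 760.7 and 749.1. The groups were clearly apart (0.39 ± 0.07, limma adjusted p = 0.000259).

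Fdft1, the squalene synthase that commits farnesyl diphosphate to sterols, read 709.1 and 753.5 in the knockdown against 1029.9 and 1035.7 in the control. Both knockdown arrays were low, and the difference was -0.49 ± 0.07 (limma adjusted p = 2.69e-05), with its second probe set lower by a like amount (-0.57). Fdft1 uses the product of Fdps, so neighbouring enzymes differed in direction. Lss, which closes squalene epoxide into lanosterol, read 317.2 and 350 against 410.9 and 407.3 at its brightest probe set. The groups did not overlap (-0.28 ± 0.09, limma adjusted p = 0.0184), but 2 other probe sets gave 0.08 and 0.23, the mean of its probe sets gave 0.01, and the call was lost without knockdown replicate 1 (-0.22) or control replicate 1 (-0.28, limma adjusted p = 0.0516).

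Of the other late enzymes, Sqle, the squalene epoxidase, was among the brightest members, at 1052.8 and 1091.5 in the knockdown against 1041.6 and 1147.4 in the control. Its groups overlapped (-0.03 ± 0.07). Tm7sf2 (a sterol reductase), Nsdhl and Hsd17b7 (which act with Msmo1 in removing methyl groups) and Ebp (a sterol isomerase) lay between -0.05 and 0.18, and none passed. Hsd17b7 had 4 tested probe sets on both sides of 0, from -0.12 to 0.63. The highest of them was dim, at 42.7 and 37 against 17.1 and 23.2, and it passed in the fit of all probe sets (limma adjusted p = 0.0314).

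Sc5d, the lathosterol oxidase near the end of the pathway, depended on the probe set. Its brightest read 248.7 and 240.1 in the knockdown against 228.1 and 215.9 in the control, a difference of 0.13 ± 0.10 that did not pass. Another read 129.6 and 129.8 against 252.7 and 224, and was lower by 0.80 on the log2 scale (-0.80 ± 0.12, limma adjusted p = 0.000130 over all probe sets), while the remaining one, dim, had 0.19. Dhcr7, which makes cholesterol from its last precursor on one branch, read 234.1 and 148.1 against 207.5 and 220.8. One knockdown array lay above and the other below the control, and the difference of -0.18 ± 0.15 did not pass. It passed as lower without knockdown replicate 1 (-0.49, limma adjusted p = 0.0153), and was 0.12 without knockdown replicate 2.

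**Figure D2:**
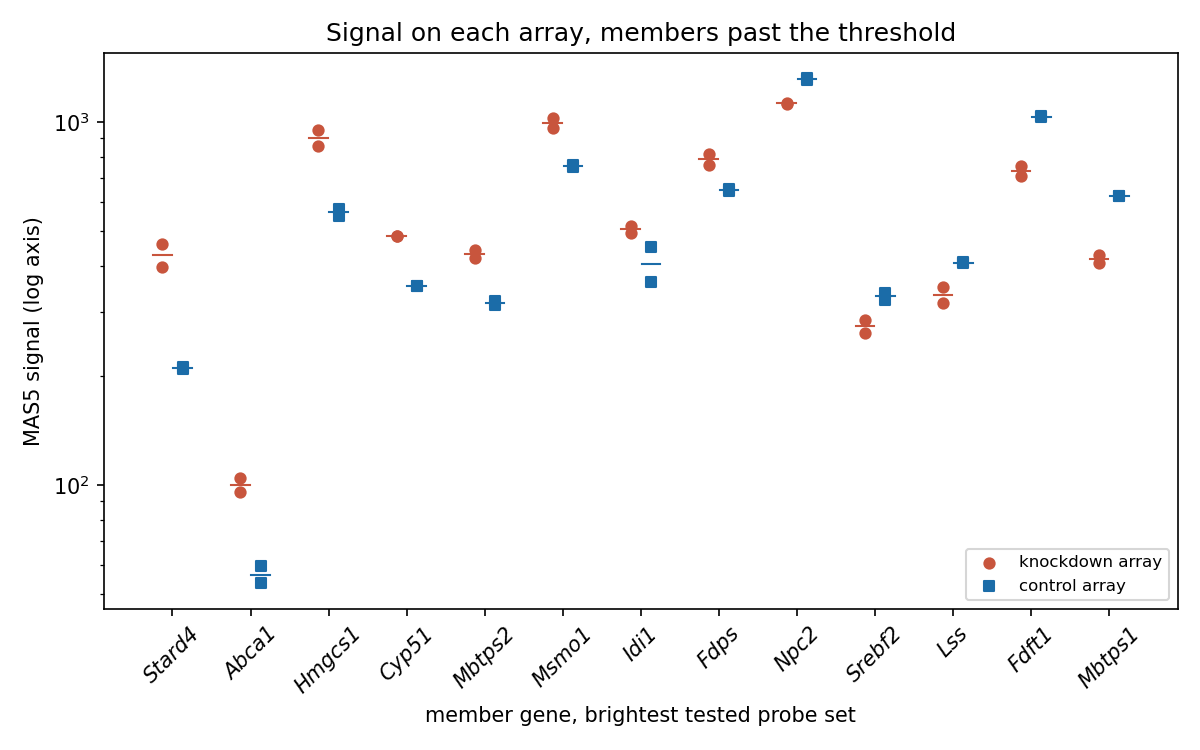
MAS5 signal (y axis, log scale) on each of the 4 arrays for the 13 members that passed (x axis), as points with the group mean as a short line. The groups did not overlap for any of them, and the widest gaps are those of Stard4 and Abca1.

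The regulators held opposite calls for the pair of proteases that activate SREBPs. Mbtps1, which makes the first cut, read 407.8 and 430.3 in the knockdown against 625.7 and 624.5 in the control. The knockdown arrays were far below the control arrays (-0.56 ± 0.08, limma adjusted p = 2.95e-05). Its 2 dim probe sets gave 0.31 and -0.45 and did not pass, and with the mean of its probe sets the call was lost (-0.23). Mbtps2, which makes the second cut, read 422.2 and 442.5 against 321 and 312.9. Both knockdown arrays were higher (0.43 ± 0.09, limma adjusted p = 0.000884).

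Srebf2, which encodes SREBP-2, the main activator of the cholesterol genes, read 285.1 and 262.4 in the knockdown against 337.8 and 322.9 in the control. The groups did not overlap, and the difference of -0.26 ± 0.10 was just past the threshold over genes (limma adjusted p = 0.0396) and not over probe sets (0.0562). The call was lost under 11 of 16 alternatives, among them quantile scaling (-0.07), and when any of the 4 arrays was left out (-0.31 without knockdown replicate 1, -0.20 without knockdown replicate 2, -0.23 without control replicate 1 and -0.29 without control replicate 2).

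The other 5 regulators did not pass, and all had negative differences as deposited. The median of all genes was also negative, at -0.16. Srebf1, Scap and Mylip lay above that median, and Insig1 and Insig2 lay slightly below it. With spike-in centring Insig1 and Insig2 passed as lower (-0.32 and -0.33), and with quantile scaling Srebf1, Scap and Mylip had positive differences (0.082, 0.043 and 0.098). Srebf1, which encodes SREBP-1, read 653.8 and 648.1 against 717.8 and 688.9 (-0.11 ± 0.08). Insig1, itself a known target of SREBPs, read 228.1 and 231.3 against 272.6 and 259.4 (-0.20 ± 0.10, limma adjusted p = 0.125). Insig2 read 270.2 and 250.4 against 316.2 and 290.6 (-0.21 ± 0.10, limma adjusted p = 0.103), with its other probe sets at -0.24 and 0.06. For Insig1 and the brightest probe set of Insig2 both knockdown arrays lay below both control arrays. Scap, the escort of SREBPs, had -0.13 ± 0.10, and Mylip, a ubiquitin ligase for lipoprotein receptors that liver X receptors switch on, had -0.09 ± 0.12. Both had overlapping groups, and for Mylip the knockdown arrays stood apart, at 321 and 243 against 300.9 and 295.

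Among the carriers was the largest rise of any member. Stard4, a soluble protein that moves cholesterol between membranes and is a known SREBP-2 target, read 460 and 398.9 in the knockdown against 207.9 and 210.7 in the control. The mean signal was 2.05 times that of the control, with no overlap (0.98 ± 0.10, limma adjusted p = 7.65e-07). Its other tested probe sets also passed, at 0.55 and 0.86. Abca1, the exporter of cholesterol to apolipoproteins, read 95.8 and 104.2 against 53.5 and 59.6. Both knockdown arrays were higher, at 1.77 times the control mean (0.68 ± 0.15, limma adjusted p = 0.00163). Of its 2 probe sets below the tested level, 1 read 14.7 and 17.6 against 0.2 and 1.3, and the other 12.6 and 9.1 against 9 and 16.1.

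Of the lysosomal pair, Npc2 fell and Npc1 did not pass. Npc2, the soluble sterol carrier of the lysosome, read 1122.8 and 1129.3 in the knockdown against 1318.7 and 1300.6 in the control. The arrays within each group were close, and the difference of -0.22 ± 0.06 passed (limma adjusted p = 0.0104), but not without knockdown replicate 1 (-0.21, limma adjusted p = 0.0535). The difference as deposited was only slightly below the median of all genes, -0.16. With quantile scaling it was -0.05 and did not pass. A dim probe set for Npc2 was lower by more (-0.59) and passed, and a bright one at -0.19 did not. Npc1, its membrane partner, was dim at 42 and 43.2 against 39.3 and 34.4 (0.15 ± 0.19), and did not pass.

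Because a gene's probe sets can read different ends or forms of its RNA, the 58 tested member probe sets were also read singly. Of these, 16 were higher (27.6%, against 9.73% of all 22519 tested probe sets) and 7 lower (12.1%, against 25.8%). Probe sets of 1 gene are not independent: of the 16, Hmgcs1 gave 4, Stard4 gave 3 and Idi1 gave 2. Early mevalonate genes gave 8 higher and none lower of 16 probe sets, and late sterol genes 3 higher and 4 lower of 21. Of 15 members with more than 1 tested probe set, Hmgcs1, Idi1, Stard4 and Fdft1 had all of them past the threshold in 1 direction. Hsd17b7, Insig2, Lss, Mbtps1 and Sc5d had probe sets of both signs, and 0 members had probe sets that passed in both directions.

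**Figure D3:**
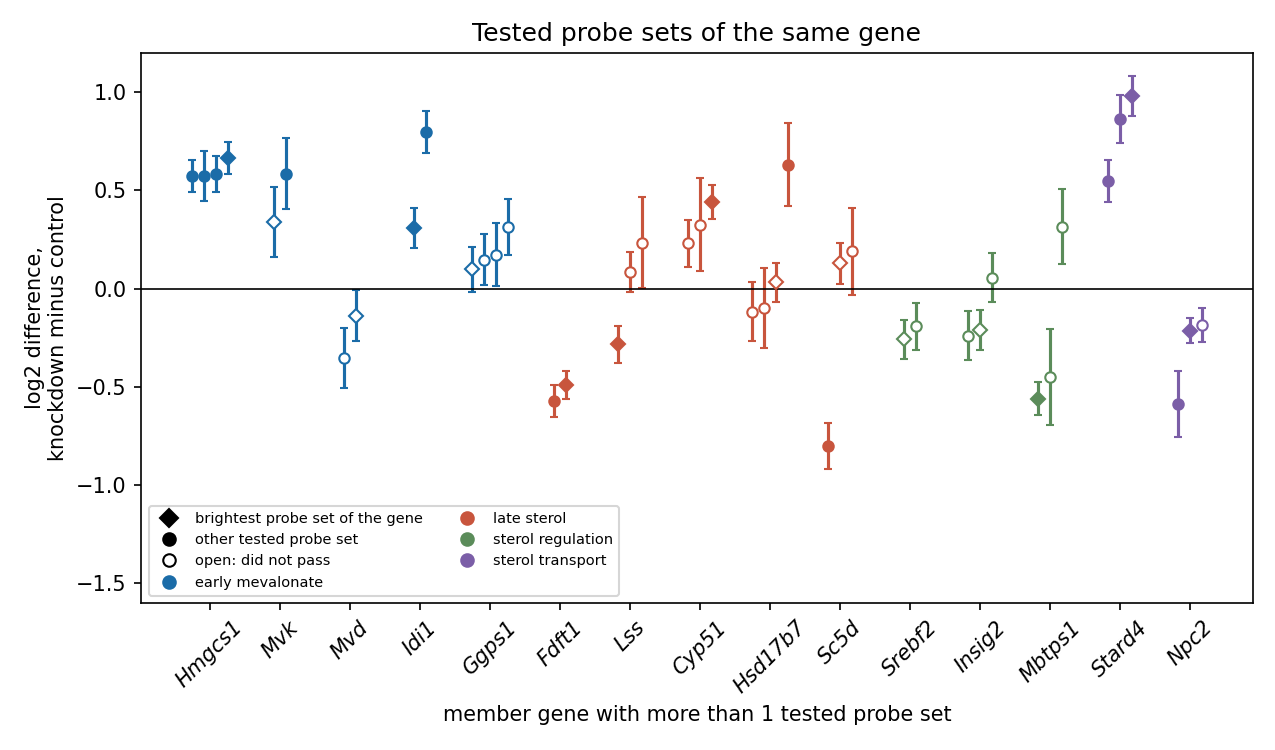
Log2 difference (y axis, knockdown minus control) of every tested probe set of the 15 members with more than 1 (x axis), with bars of 1 standard error; diamonds are the brightest probe set of a gene and open symbols did not pass over all probe sets. The probe sets of Hmgcs1, Idi1 and Stard4 lie together above 0, while those of Lss, Mbtps1 and Sc5d fall on both sides.

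The size of these differences moved with the scaling of the arrays. As deposited, 3836 of 11804 tested genes had a difference above 0. Trimmed means were 128 and 133 for the knockdown arrays, against 149 and 144 for the control arrays. The median log2 difference of all genes was -0.16 as deposited, -0.04 when arrays were quantile-scaled, -0.03 when they were centred on tested probe sets and -0.28 when centred on 18 spike-in probe sets. Under the same settings the early mevalonate median was 0.42, 0.41 and 0.15. The carriers' median was 0.49, 0.55 and 0.29. The late sterol median was 0.22, 0.16 and -0.09, so its sign turned with the spike-ins, but it stayed above that of all genes. The median of the regulators was 0.01, -0.03 and -0.29, positive with quantile scaling. Members split 8 higher to 5 lower as deposited, 10 to 2 with quantile scaling, 11 to 2 centred on tested probe sets and 6 to 8 with the spike-ins. All genes split 1156 to 4155 as deposited, then 2089 to 2666, 2004 to 2861 and 601 to 5225 in the same order. Hmgcs1, Fdft1, Cyp51, Msmo1, Mbtps2, Stard4 and Abca1, 7 of the 13, kept call and direction under every alternative that tested them; Abca1 was not tested among the brightest 25%.

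**Figure D4:**
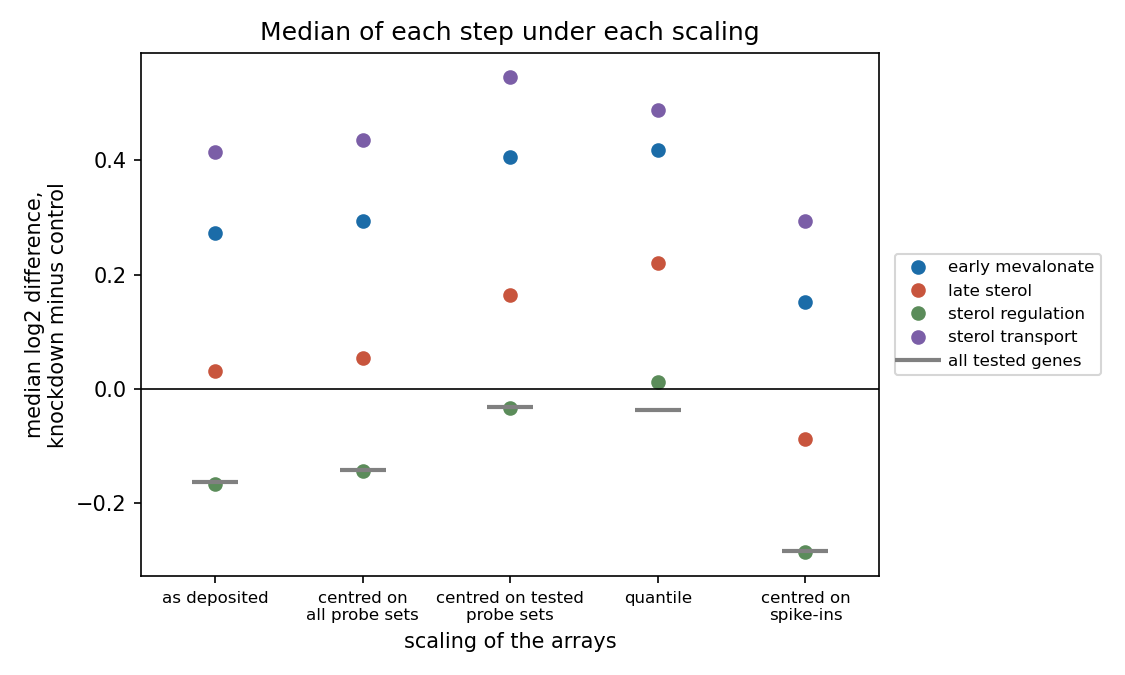
Median log2 difference (y axis, knockdown minus control) of the tested genes of each step and of all tested genes (grey bars), under each scaling of the arrays (x axis). The carriers and the early mevalonate genes stay above 0 and above the median of all genes under all 5 scalings. The late sterol genes also stay above that median, but lie below 0 with spike-in centring. The regulators lie close to the median of all genes.

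Genes of neighbouring pathways were read from lists of their own. The isoprenoid branch uses the products of the early enzymes for prenylation, dolichol and ubiquinone. It had 0 of 11 tested genes higher (against 9.79% of all genes) and 6 lower (54.5%, against 35.2%), with a median of -0.31. Rabggtb, a subunit of the Rab prenyltransferase, read 1742.5 and 1795.9 against 3170.2 and 3092.1 (-0.82 ± 0.05, limma adjusted p = 6.52e-09). Pdss2, a subunit of the synthase of the ubiquinone side chain, read 52.4 and 50.8 against 111.5 and 127.3, or 0.432 times the control mean (limma adjusted p = 4.06e-05), and Pggt1b, a subunit of a protein prenyltransferase, had -0.60 ± 0.12 (limma adjusted p = 0.000518), which was lost with the mean of its probe sets (-0.15). With quantile scaling or centring on tested probe sets this branch had 2 higher and 4 lower, and its median was -0.15 and -0.18.

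Fatty acid synthesis, which SREBP-1 serves most, had 2 of 12 tested genes higher (16.7%, against 9.79% of all genes) and 4 lower (33.3%, near 35.2%). Its median of -0.09 turned to 0.07 with quantile scaling and to 0.05 when centred on tested probe sets. Without knockdown replicate 2 the count was 0 higher and 3 lower, and without knockdown replicate 1 it was 2 and 2. Mid1ip1, an activator of acetyl-CoA carboxylase, had -0.61 ± 0.06 (limma adjusted p = 3.98e-07), and Acaca, that carboxylase, had -0.56 ± 0.13 (limma adjusted p = 0.00200). Scd2, a desaturase, had 0.24 ± 0.05 (limma adjusted p = 0.00165), which did not pass without knockdown replicate 2 (0.16).

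Of 7 tested genes of sterol storage and oxysterol response, none rose (against 9.79% of all genes) and 1 fell (14.3%, against 35.2%). Their median was -0.20. The list had 1 higher and 0 lower with quantile scaling (median -0.020), no call when centred on tested probe sets (-0.065) and 3 lower with spike-in centring (-0.32). The gene that fell, Scarb1, a lipoprotein receptor, had -0.23 ± 0.08 (limma adjusted p = 0.0256), which was lost without knockdown replicate 1 (-0.18) or control replicate 1 (-0.20). Nr1h3, a liver X receptor, had -0.42 ± 0.17 and Osbp, an oxysterol-binding protein, -0.20 ± 0.09, and neither passed. Of 5 genes linked to the sterol-driven breakdown of pathway enzymes, 1 rose (20%, against 9.79% of all genes) and 2 fell (40%, near 35.2%). Their median of -0.07 turned to 0.09 with quantile scaling and to 0.06 when centred on tested probe sets. Ube2g2, a ubiquitin-conjugating enzyme, had -1.15 ± 0.07 (limma adjusted p = 4.25e-09) and Ufd1, a cofactor of Vcp, -0.81 ± 0.10 (limma adjusted p = 3.61e-06). Marchf6, a ubiquitin ligase for squalene epoxidase, had 0.38 ± 0.08 (limma adjusted p = 0.00129), which was lost with the mean of its probe sets (0.26).

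The label of the cells was read against neuronal and neuroblastoma markers, of which 9 of 13 with a probe set were tested. Their summed signal was 8637 and 8814 in the knockdown against 9288 and 9305 in the control, with Chgb higher and Phox2a and Stmn2 lower, and Th, Gata3, Nefl and Nefm below the tested level. Of the macrophage markers 1 of 3 tested fell, where 35.2% of all genes tested were lower. It was Cd68, from 619 and 720.7 in the control to 338.1 and 341.5 in the knockdown. The sum over all 5 was 433 and 411 against 731 and 816, with the defining Ptprc and C1qa at 8.1 or below on every array. Csf1r read 72.4 and 58.1 against 82.6 and 68, and Adgre1 21.5 and 8.3 against 20.2 and 26.1, and neither passed. Endothelial markers (119 and 134 against 199 and 167) had 1 lower call of 2 tested, Pecam1, at 63.1 and 69.7 against 154.2 and 118.3. Liver markers (113 and 96.3 against 222 and 181) had 1 of 3, Apoa1, at 54.6 and 48.3 against 146.8 and 104.6. Fibroblast and glial markers had 0 calls, with 2 tested in each list. The ratio of 3′ to 5′ control probe sets was 0.833 and 0.787 in the knockdown against 0.884 and 0.861 in the control for Gapdh, and 2.47 and 2.49 against 2.60 and 2.78 for Actb. Their part in the differences of the sterol genes was not tested. In bulk RNA of 1 fraction, fewer cells of a type, less RNA per cell and a shift between cytoplasm and nucleus cannot be told apart.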

How the data were processed

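Cytoplasmic poly(A)+ RNA was hybridised to 4 mouse Affymetrix arrays, 2 of 4.5SH knockdown and 2 of control cells, grouped by the labels. The authors deposited intensities, 1 MAS5 signal per probe set, per the submitters' processing notes. Neither a software version nor a scaling target is given in the sources used here. Precision is limited by the number of arrays.

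Of 45101 probe sets, 64 were controls, 34945 had 1 gene symbol in the platform annotation, 932 several and 9160 none; 34741 were matched to RefSeq by Entrez identifier. Values were log2(signal + 16), which shrinks the fold changes of dim genes. Probe sets with a mean at or above the median (signal about 16.4) were tested: 22519 probe sets and 11804 genes, each gene by its brightest. Group differences were fitted by lmFit and eBayes of limma 3.58.1 (R 4.3.3) with the prior variance following intensity; tests were two-sided, on 17.0 degrees of freedom in all, with Benjamini-Hochberg adjustment at 0.05. No list was given a test of its own.

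Every member was named, with values per array for those that passed or whose probe sets differed in sign, and up to 3 genes with the smallest p in each neighbouring list. The members and lists were chosen with earlier results of these data known. Each of these was changed in turn: the pseudocount (1 or 64), the scaling (quantile, or centring on all probe sets, tested probe sets or 18 hybridization spike-in probe sets), the filter (none, or the brightest 25%), the intensity trend (none), the replicate number as a block, the gene summary (without _x_at and _s_at probe sets, or the mean over probe sets), and the arrays (each left out once). Promoter windows came from RefSeq (GRCm38.p6). Plots used matplotlib 3.10.9 (Python 3.11.15).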

Additional observations from a re-analysis of the deposited data

How the results depend on the processing

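The count of members that fell, 5 as reported, was 2 with quantile scaling, centring on tested probe sets, no intensity trend and the mean of probe sets, 8 with spike-in centring, and 3 to 4 when 1 array was left out. Member probe sets that were lower numbered 4 after centring on tested probe sets and 12 with spike-in centring, against 7. All genes that were higher numbered 2089 with quantile scaling, 2004 centred on tested probe sets, 601 with spike-in centring and 705 to 1171 with 1 array left out, and those that were lower 2666 with quantile scaling. The early mevalonate median was 0.42 with quantile scaling, 0.41 centred on tested probe sets, 0.15 with spike-in centring, 0.19 among the brightest 25% (6 genes) and 0.16 to 0.32 with 1 array left out. The late sterol median was 0.22, 0.16 and -0.088 under the same scalings, 0.083 without _x_at and _s_at probe sets, and 0.013 to 0.060 with 1 array left out. The median of the regulators was 0.012, -0.033 and -0.29 under the scalings and -0.22 to -0.13 with 1 array left out. That of the carriers was 0.49, 0.55 and 0.29 under the scalings, 0.51 and 0.26 with pseudocounts of 1 and 64, and 0.15 with no filter, which adds Abcg1 (5 genes). Lss turned to 0.085 without _x_at and _s_at probe sets and to 0.012 with the mean of probe sets, and lost its call with quantile scaling (-0.11), centring on tested probe sets (-0.15) and no trend. The cause was not tested. Srebf2 also lost its call with quantile scaling (-0.07), either centring on probe sets (-0.24 on all, -0.13 on tested), no filter, no trend or the mean of probe sets. Calls were gained by Pmvk, Insig1 and Insig2 (lower, spike-in centring), Ebp and Sc5d (higher, quantile scaling and centring on tested probe sets) and Mvk (higher, centring on tested probe sets and the mean of probe sets). Idi1 also lost its call with spike-in centring (0.19), no filter or no intensity trend, Fdps with spike-in centring (0.15) or no trend, and Npc2 with quantile scaling (-0.05), centring on tested probe sets (-0.08) or no trend.

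Same-numbered arrays shared no visible deviation from their group means (correlation 0.00171). With 2 arrays a group this cannot show whether they were prepared together. With a replicate block, all genes gave 1203 higher and 4190 lower, and Srebf2 was the 1 member that lost its call (limma adjusted p = 0.0539). With 2 arrays a group and differences of modest size, a missed threshold shows no absence of change; Abcg1 was below the level tested.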
